A study of Homo sapiens with 6 samples.

Results

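Broad peaks are stretches of at least 1500 bp that were called as 1 uninterrupted block of accessible chromatin. They were taken from 12 ATAC-seq peak lists on chromosomes 1 to 22 and merged over the lists wherever they shared at least 1 bp. This gave 680 regions, called members here, out of 126189 regions formed by all peaks. The members come from 2259 broad peaks, which are 0.325% of the 695442 peaks on these chromosomes. Their length had a median of 1652.5 bp and reached 2950 bp, and together they cover 1.16 Mb. The members were selected on peak width in these same lists, so their widths are given as a description. All coordinates are hg19, and no genes were assigned, because no hg19 annotation was used.

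The cells are 3 human B-cell acute lymphoblastic leukemia lines named RS4;11, SEM and RCH, the last read as RCH-ACV from how the cells were grown, each with a non-targeting control shRNA (NT) or with the shRNA sh2 against NSD2. NSD2 is a methyltransferase that places methyl groups on lysine 36 of histone H3. There is 1 sample per line and shRNA, and each sample has 2 peak lists, read here as libraries 1 and 2. Whether the libraries stand for separate cultures is not given, and their spread may therefore be technical. Within a line, NT and sh2 are 1 sample each and have no test. As background, a KMT2A-AFF1 fusion is present in RS4;11 and in SEM. A single shRNA against NSD2 was used, so its own off-target effects cannot be told apart from loss of NSD2.

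In ATAC-seq the transposase Tn5 cuts DNA that is not covered by nucleosomes and inserts sequencing adapters there. A typical accessible site is a single nucleosome-free gap. Wide accessible stretches arise where several neighbouring nucleosomes are displaced or unstable, as at active promoters within CpG islands, at start sites that face each other, and at clustered enhancer elements. A peak caller reports such a stretch as broad when the signal stays above its limit without a break. A short dip below the limit splits the same stretch into several peaks, and the shortest distance between neighbouring peaks was 52 bp in every list.

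Each list held 40506 to 81527 peaks on chromosomes 1 to 22, with a median width of 325 to 369 bp. The number of peaks was lower with sh2 in RS4;11 and RCH and higher in SEM. RS4;11 had 76495 ± 7116 peaks (SD, n = 2 libraries) in NT lists and 60378 ± 1238 in sh2 lists. The values were 52888 ± 830.1 and 61134 ± 1394 in SEM, and 55052 ± 441.2 and 41775 ± 1794 in RCH. RCH with sh2 also had the lowest median fold enrichment of all peaks, 5.42 and 5.32 in its libraries against 6.09 and 6.12 with NT. Fold enrichment is the value deposited with each peak, read as signal over local background. It is not normalized between lists, and sequencing depth is unknown.

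Fewer broad peaks were called with sh2 than with NT in all 3 lines, including SEM, where the total number of peaks was higher with sh2. RS4;11 had 293 and 284 broad peaks in its NT libraries and 169 and 174 in its sh2 libraries. SEM had 273 and 283 with NT and 238 and 256 with sh2. RCH had 94.5 ± 10.6 (SD, n = 2 libraries, the lower at 87) with NT and 52 and 48 with sh2. In each line both sh2 libraries lay below both NT libraries. Relative to NT the mean number differed by -40.6% (RS4;11), -11.2% (SEM) and -47.1% (RCH).

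Broad peaks were also a smaller share of the peaks called with sh2. The share was 0.378% ± 0.0269 (SD, n = 2 libraries) with NT and 0.284% in both libraries with sh2 in RS4;11. It was 0.526% ± 0.00512 and 0.404% ± 0.0300 in SEM, and 0.172% ± 0.0206 and 0.120% ± 0.00163 in RCH. The libraries of NT and sh2 did not overlap in this share in any line. On a log2 scale the share differed between sh2 and NT by -0.41 (RS4;11), -0.38 (SEM) and -0.52 (RCH), and their mean was -0.44 ± 0.0745 (SD over 3 lines). For the number of broad peaks the log2 ratios were -0.75, -0.17 and -0.92, and their mean was -0.61 ± 0.39 (SD over 3 lines). These values rest on the widths that chose the members and are a description. An exact sign-flip test over 3 lines cannot give a p below 0.25. When the lists were trimmed by fold to equal length within a line, the share had log2 ratios of -0.75, -0.17 and -0.91. This trimming takes out the peaks of lowest fold, and few broad peaks are among them (679 of 680 members remained). The ratios therefore had to stay near those of the number, and nothing is read from them about list length. The median width of all peaks was 344.5 bp with NT and 342.5 bp with sh2 in RS4;11, and 327.5 and 327 bp in RCH. In SEM it was 364 and 346 bp, and the libraries did not overlap. At regions with a peak in all 4 lists of a line, the median width was 462 bp with NT and 407 bp with sh2 in RS4;11, 459 and 470 bp in SEM, and 473 and 424 bp in RCH.

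**Figure D1:**
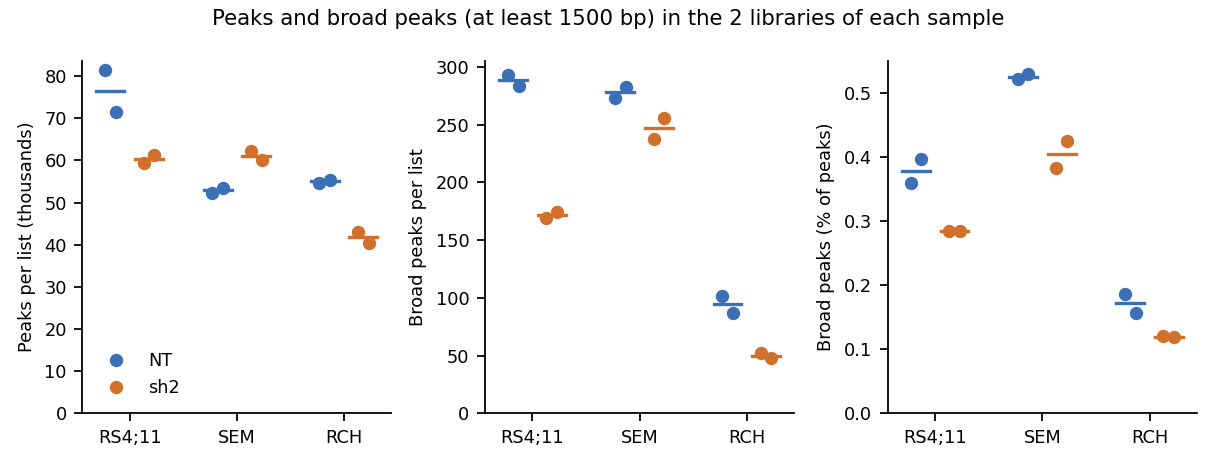
Number of peaks (left, axis in units of 1000 peaks), number of broad peaks (middle) and broad peaks as a percentage of all peaks (right) in the 3 lines. Dots are the 2 libraries of a sample and short lines their mean, blue for NT and orange for sh2. In SEM the peaks per list are higher with sh2 (52888 against 61134 on average) while broad peaks are fewer (278 against 247).

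Broad peaks ranked above the middle of their lists in fold enrichment, but not at the top. Their median percentile within the list was 70.5 to 80.4 in the 12 lists. In RS4;11 the median fold of broad peaks was 10.9 and 10.7 in the NT libraries and 10.2 and 10.3 in the sh2 libraries. In SEM it was 8.27 and 8.22 with NT and 8.63 and 8.81 with sh2. In RCH it was 8.87 and 9.48 with NT and 7.99 and 7.68 with sh2. Between 0% and 12.2% of the broad peaks of a list had a fold below the median of that list. Members broad in all 12 lists had a lower median of the mean percentile (66.4 over 13 members) than members broad in 1 list (71.2 over 248). The classes between were higher than both, at 73.8 (2 to 3 lists), 75.1 (4 to 6 lists) and 74.0 (7 to 11 lists), so there was no steady trend.

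The limit of 1500 bp cuts through a continuous range of widths. In the RS4;11 NT libraries 82 and 69 peaks were up to 50 bp above the limit and 72 and 81 up to 50 bp below it. The median folds were 11.3 and 11.3 just inside and 11.5 and 11.7 just outside. In the RCH sh2 libraries the counts were 20 and 15 inside and 13 and 20 outside. Few peaks were much wider than the limit, with 3 to 22 per list at 2000 bp or more. The second widest peak of a list measured 2120 to 2515 bp.

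Most members were broad in few lists. Of the 680 members, 248 (36.5%) were broad in 1 list and 131 in 2 lists, while 134 (19.7%) were broad in at least 6 lists and 13 (1.91%) in all 12. Members were nevertheless almost always accessible. A peak of some width was present in all 12 lists at 641 members (94.3%), against 16.6% of all 126189 regions and 87.6% of the 5420 regions whose widest peak measured at least 1000 bp but less than 1500 bp. This high share goes with the selection of wide peaks, and regions just under the limit were close to it.

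**Figure D2:**
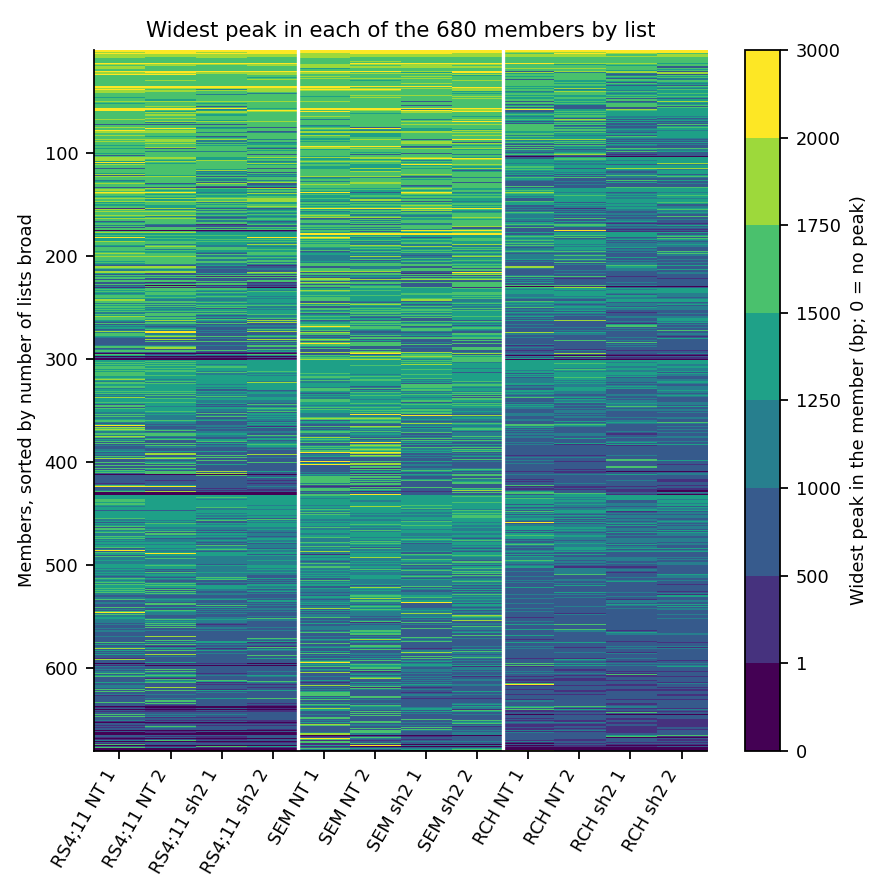
Widest peak (bp, colour) in each of the 680 members (rows, sorted by the number of lists in which the member is broad) for the 12 lists (columns; white lines separate the cell lines). RCH columns are darker, that is narrower, than RS4;11 and SEM columns, and dark rows in RS4;11 are members without any peak in that line.

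The 13 members that were broad in every list differed in how much their width varied, with spans of 44 to 541 bp over the 12 lists. A member on chromosome 2 from 136288034 to 136289766 measured 1695 and 1684 bp in RS4;11 NT, 1698 and 1692 bp in RS4;11 sh2, 1718 and 1661 bp in SEM NT, 1684 and 1727 bp in SEM sh2, 1654 and 1611 bp in RCH NT, and 1655 and 1605 bp in RCH sh2. Its 12 widths thus spanned 122 bp, and it had the highest mean fold percentile of these members (80.9). A member on chromosome 4 from 103747924 to 103749790 spanned 92 bp, between 1754 and 1846 bp. A member on chromosome 8 from 96280735 to 96282412 also spanned 92 bp, between 1540 and 1632 bp. The chromosome 18 member (72264485 to 72266116) spanned 99 bp. The chromosome 11 member (33278612 to 33280323) spanned 184 bp and the chromosome 3 member (9437901 to 9439706) 276 bp. In each of these 6 members the difference between the mean widths of sh2 and NT was at most 45 bp in any line. Other members of the 13 varied more. The chromosome 8 member from 81397575 to 81399835 spanned 541 bp (1697 to 2238 bp), and its largest difference between the mean widths of sh2 and NT in a line was 181.5 bp. The chromosome 19 member from 54693095 to 54695350 spanned 394 bp, with a largest difference of 262.5 bp. These 2 were singled out after their values were seen.

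The widest peak was the same in every list. It lies on chromosome 6 from 58776422 to 58779371, measured 2893 to 2937 bp, and had folds of 5.87 to 6.47 in all 12 lists. No region of any list followed it for 3253 kb, and the region before it was 169.1 kb away. As background, this position borders the centromere gap of the hg19 assembly. A second member of this kind lies on the short arm of chromosome 21 from 9825441 to 9827606, with widths of 2098 to 2155 bp and folds of 5.75 to 6.44. As background, the short arms of such chromosomes carry ribosomal DNA and other repeats. Both members had nearly the same width and fold in the 3 lines, and a part of repeated sequence in this was not tested.

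Sharing over lines was partial. Counting a member as broad in a line where at least 1 of its 4 lists was broad, RS4;11 had 419 broad members, SEM 505 and RCH 177. Of the 680 members, 376 (55.3%) were broad in 1 line, 187 (27.5%) in 2 lines and 117 (17.2%) in 3 lines. RS4;11 and SEM shared 267 members, which are 63.7% of those in RS4;11 and 52.9% of those in SEM. RS4;11 and RCH shared 131, which are 31.3% of RS4;11 and 74.0% of RCH. SEM and RCH shared 140, which are 27.7% of SEM and 79.1% of RCH. The shorter RCH set was thus largely contained in the others, and 23 members were broad in RCH alone, 21 of them in a single list.

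Members broad in 1 line were usually accessible in the others. By selection they were below the limit there, so their narrower widths are given as a description. Of the 215 members broad in SEM alone, 137 were broad in a single list and 202 had a peak in all 4 RS4;11 lists. The 215 had a median width of 1360.5 bp in SEM lists, 925 bp in RS4;11 lists and 843 bp in RCH lists. In RS4;11 they were split into several peaks in 60.5% of list positions, and the pieces together spanned a median of 1412.5 bp. Of the 138 members broad in RS4;11 alone, 90 were broad in a single list and 136 had a peak in all 4 SEM lists. The 138 had a median width of 1380 bp in RS4;11 and 1098.5 bp in SEM. The medians of 1360.5 and 1380 bp, each in the line of the class, were themselves below the limit. Stable line specificity was rare. Broad in all 4 lists of a line and in no list of another line were 6 members of 83 in RS4;11, 7 of 92 in SEM and 0 of 14 in RCH, and all 13 of these had a peak in all 8 lists of the other lines.

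Each broad peak was then looked up in the other lists of its line, where it could again be broad, be split into several peaks of less than 1500 bp, be narrow (1 peak of less than 1500 bp) or be absent. In 6777 lookups within a line, 0 broad peaks were absent. In other lines 261 of 18072 lookups (1.44%) found no peak. Loss of width within a line was therefore always to a split or a narrower peak. The second library of the same sample gives the share for a repeated measurement.

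In RS4;11, 66.9% of the broad peaks of an NT library were broad again in the other NT library, and 45.9% were broad in an sh2 library (range of 4 pairs 44.4% to 47.9%). They were split in 19.6% and 31.5% and narrow in 13.5% and 22.6% of cases. In the other direction, 60.1% of the broad peaks of an sh2 library were broad in the other sh2 library, and 77.1% in an NT library. Broad peaks of sh2 libraries were thus found broad more often in the other condition than in their own replicate library, and the reverse held for NT. The number of members broad in both lists of a pair is the same from either side, and NT lists held more broad peaks. The asymmetry between directions thus follows from the list sizes, and nothing more is read from it.

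SEM had a smaller asymmetry. Of NT broad peaks, 61.2% were broad in the other NT library and 52.7% in an sh2 library. Of sh2 broad peaks, 58.8% were broad in the other sh2 library and 59.3% in an NT library. The kind of change differed with direction. NT broad peaks were split in 31.9% of lookups in sh2 and narrow in 15.4%, while sh2 broad peaks were split in 17.02% of lookups in NT and narrow in 23.6%.

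RCH had the lowest agreement. Of NT broad peaks, 47.9% were broad in the other NT library and 27.3% in an sh2 library, where 40.8% were split and 32.0% narrow. Of sh2 broad peaks, 42.1% were broad in the other sh2 library and 51.7% in an NT library. RCH broad peaks of sh2 libraries were broad in 74.4% of lookups in the lists of the other lines (range 64.6% to 85.4%). This share was higher than in any list of RCH. Every list of the other lines held more broad peaks than any RCH list, and RCH NT lists held more than RCH sh2 lists. The part of list size in these higher shares was not tested, so nothing more is read from them.

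**Figure D3:**
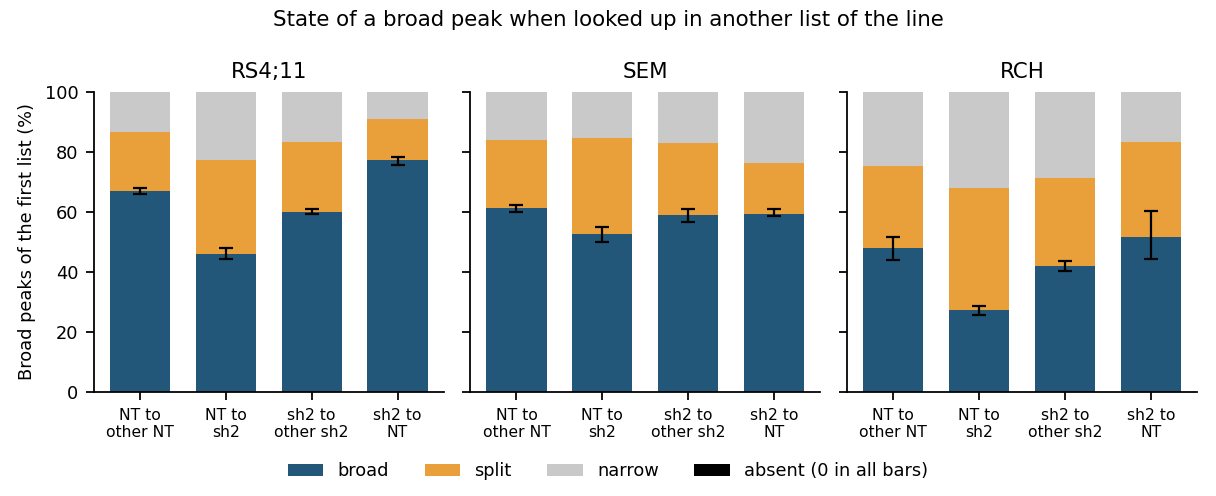
State of the broad peaks of 1 list when looked up in another list of the same line, as the mean percentage over 2 pairs of libraries (same sample) or 4 pairs (other condition). Error bars give the lowest and highest pair for the share that is broad. From NT to sh2 the broad share is 45.9% in RS4;11, 52.7% in SEM and 27.3% in RCH, below the share between the NT libraries in each line, and no broad peak is absent.

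Covered bases were looked at as well. They are a measure unlike the share of peaks above the limit, so these shares are not set against each other. At members broad in an NT library of RS4;11, the bases covered in an sh2 library totalled 91.0% of those in that NT library. The other NT library had 96.6%. In SEM these values were 93.7% and 95.2%, and in RCH 84.1% and 93.9%. They are ratios of totals, and bases covered in both libraries were not counted. Over all 680 members the covered share of their bases was 83.9% ± 0.233 (SD, n = 2 libraries) with NT and 78.6% ± 0.618 with sh2 in RS4;11, 86.7% ± 0.191 and 85.8% ± 0.684 in SEM, and 73.4% ± 0.729 and 68.4% ± 0.249 in RCH. The gaps between pieces of a member had a median of 114 to 171 bp, and 58.8% to 80.1% of them were at most 200 bp long. No list held neighbouring peaks closer than 52 bp, so shorter gaps are not seen, and what lies in the gaps was not tested.

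Members that were broad in both NT libraries and in no sh2 library of a line numbered 51 in RS4;11, 32 in SEM and 19 in RCH. The reverse, broad in both sh2 libraries and in no NT library, was found at 4, 19 and 4 members. As a share of all regions with a peak in the line, these calls made up 0.0552% and 0.00433% in RS4;11, 0.0418% and 0.0248% in SEM, and 0.0265% and 0.00557% in RCH. Only members can meet this rule, so nothing is read from these shares. The log2 ratio of the sh2-only to the NT-only count, with 1 added to each, was -3.38, -0.72 and -2.00 (mean -2.03 ± 1.33, SD over 3 lines), given without a test because the widths chose the members. With 1 library left out a condition rests on a single list, and these counts were larger except for the sh2-only count of RCH without NT library 2, which was again 4. NT-only members were at most 119 of 645 in RS4;11 (without NT library 2), 16.1% of members in SEM (without NT library 1) and 64 in RCH (without NT library 2). The sh2-only counts were at most 22, 73 and 21 (without sh2 library 2, 1 and 2). The order of the counts turned in SEM without sh2 library 1 (53 NT-only and 73 sh2-only) and without sh2 library 2 (57 and 65), and at a limit of 1200 bp (92 and 99). It also turned in RCH at a limit of 2000 bp (0 and 1).

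NT-only broad members were split or narrow in sh2. In RS4;11, 22 of the 51 were split in both sh2 libraries, 16 were narrow in both and 13 differed between the libraries. In SEM it was 18, 9 and 5 of 32, and in RCH 11, 3 and 5 of 19. None was without a peak. The median gap between pieces in the sh2 lists was 109 bp in RS4;11 (66 gaps, 54 to 635 bp), 110.5 bp in SEM (50 gaps, 53 to 502 bp) and 177 bp in RCH (37 gaps, 54 to 960 bp). Whether an NT list had a gap at the same place was not checked. Covered bases in sh2 were 86.0%, 85.3% and 77.2% of those in NT, and the distance from the first to the last covered base had a median of 95.7%, 94.2% and 90.7% of that in NT. The highest fold of any piece had a median percentile within its list of 79.3 with NT and 80.5 with sh2 in RS4;11. It was lower with sh2 in the other lines, at 70.0 and 66.7 in SEM and 80.8 and 76.7 in RCH.

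The sh2-only broad members differed between lines in their state with NT. Of the 19 in SEM, 14 were narrow in both NT libraries and 3 were split in both. Their median width was 1381 bp with NT and 1598 bp with sh2, and the median difference was 256 bp. For the 32 NT-only broad members of SEM the medians were 1621 and 1183 bp, with a median difference of -530.8 bp. In RS4;11 all 4 sh2-only members were narrow in both NT libraries, with a median difference of 150.3 bp. In RCH none of the 4 was narrow in both NT libraries, 1 was split in both and 3 differed between the libraries. Their median width was 891.5 bp with NT and 1611 bp with sh2, and the median difference was 698.8 bp.

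Complete disappearance was rare at members. A peak in both NT libraries and none in sh2 was found at 0 members in RS4;11, 1 in SEM and 2 in RCH, while 9.72%, 2.63% and 10.5% of all regions with a peak in these lines were of this kind. A peak in both sh2 libraries and none in NT was found at 0 members in each line, against 0.879%, 7.56% and 1.94% of regions. The width rule needs a wide peak in some list, so members and all regions are not like for like here. The SEM case lies on chromosome 7 from 49741723 to 49743289, with widths of 200 and 200 bp in SEM NT and a broad peak of 1567 bp in RS4;11 NT library 1. The RCH cases lie on chromosome 6 from 85472440 to 85474257 (244 and 384 bp in RCH NT) and on chromosome 15 from 37392496 to 37394105 (712 and 666 bp in RCH NT). None of these 3 was broad in the line where it disappeared, and they were singled out after their values were seen.

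One member was NT-only broad in 2 lines. On chromosome 2 from 191744993 to 191746966, the widest peak measured 1949 and 1965 bp in RS4;11 NT and 902 and 948 bp in RS4;11 sh2. It measured 1752 and 1775 bp in SEM NT and 926 and 859 bp in SEM sh2. In RCH it was 634 and 719 bp with NT and 792 and 954 bp with sh2, with 2 pieces in every RCH list. The member was 1 block in the NT lists of RS4;11 and SEM and 2 blocks, with a gap near its middle, in the other 8 lists. The highest fold of a piece was 13.4 and 13.4 in RS4;11 NT and 13.7 and 13.04 in RS4;11 sh2. Covered bases were 1949 and 1965 with NT and 1608 and 1621 with sh2 in RS4;11, but 1752 and 1775 with NT and 1777 and 1705 with sh2 in SEM.

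The largest losses of width in RS4;11 were at 2 unlike members. On chromosome 21 from 11143595 to 11145988 the widest peak measured 2377 and 2308 bp with NT and 595 and 1173 bp with sh2. Its folds were among the lowest of the lists, 3.75 and 3.54 with NT, with a mean percentile of 2.79, and SEM and RCH had 258 to 702 bp there. On chromosome 4 from 145566925 to 145568697 the width was 1726 and 1773 bp with NT and 502 and 608 bp with sh2. Here SEM was wider with sh2 (1032 and 1685 bp) than with NT (685 and 728 bp), and RCH had 1139 and 667 bp with NT and 650 and 639 bp with sh2.

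In SEM the largest loss was on chromosome 20 from 48806862 to 48809023, with 2072 and 2162 bp in NT and 1408 and 718 bp in sh2. The next was on chromosome 7 from 113724552 to 113726850, with 1502 and 2266 bp in NT and 816 and 855 bp in sh2, in 3 pieces each. RS4;11 had no peak there, and RCH had 776 and 1335 bp with NT and 238 bp and no peak with sh2. In RCH the largest losses were on chromosome 2 from 30453789 to 30455760, with 1516 and 1828 bp in NT and 497 and 648 bp in sh2, and at a chromosome 5 member (122370720 to 122372880), with 1765 and 1806 bp in NT and 585 and 795 bp in sh2. Both RCH members were in 3 or 4 pieces in the sh2 libraries. The other lines varied between libraries at these members, for example 764 and 2099 bp in the SEM sh2 libraries at the chromosome 5 member.

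Gains of width were also seen. In SEM, a member on chromosome 9 from 73033729 to 73035941 measured 1052 and 1033 bp in NT and 2196 and 1786 bp in sh2. All lists of the other lines had 738 to 1116 bp there. On chromosome 8 from 41908386 to 41910257, SEM had 1287 and 1063 bp with NT and 1685 and 1743 bp with sh2. In RCH, a member on chromosome 17 from 7386625 to 7388414 measured 738 and 829 bp in NT, in 3 pieces each, and 1624 and 1594 bp in sh2. SEM was broad there in all 4 lists (1661 to 1707 bp), and RS4;11 was split into 3 or 4 pieces in all of its lists. On chromosome 16 from 89787005 to 89788921, RCH had 518 and 1277 bp with NT and 1598 and 1724 bp with sh2.

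The gains in RS4;11 were smaller. The chromosome 10 member from 180578 to 182462 had 1463 and 1478 bp with NT and 1670 and 1785 bp with sh2, and in RCH 1026 and 1212 bp against 1447 and 1771 bp. The chromosome 18 member from 657285 to 658880 had 1408 and 1229 bp with NT and 1592 and 1517 bp with sh2. A member on chromosome 4 from 184365001 to 184366544 was sh2-only broad in 2 lines, with 1454 and 1485 bp against 1544 and 1513 bp in RS4;11 and 1334 and 1448 bp against 1505 and 1503 bp in SEM. Its differences of 59 and 113 bp are small beside those at the other named members.

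**Figure D4:**
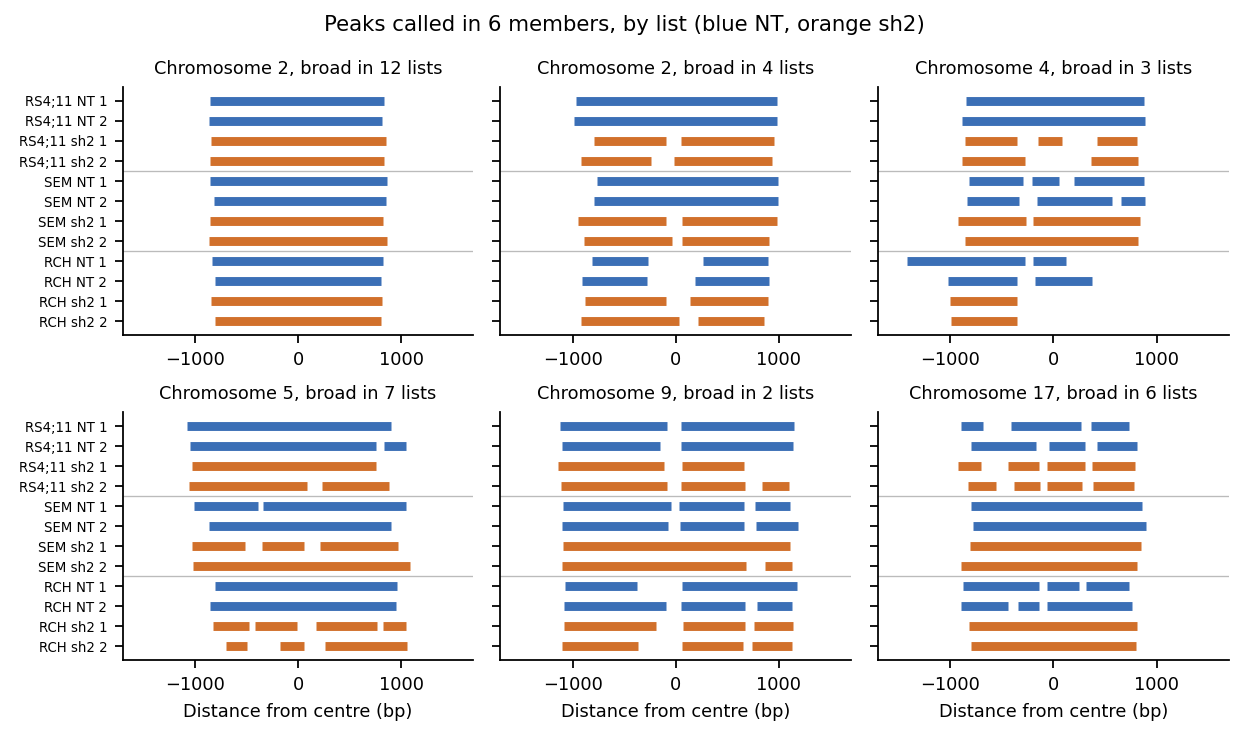
Peaks called in 6 members, 1 row per list and library number, as bars along the distance from the member's centre (bp), blue for NT and orange for sh2. The top row shows the chromosome 2 member broad in all 12 lists, the chromosome 2 member with 1 block only in the NT lists of RS4;11 and SEM, and the chromosome 4 member with 502 and 608 bp in RS4;11 sh2. The bottom row shows the chromosome 5 member broken up in RCH sh2, the chromosome 9 member wider in SEM sh2 (2196 and 1786 bp) and the chromosome 17 member joined in RCH sh2.

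Width was also compared without using the limit in the call, at members with a peak in all 4 lists of a line. The members still had to pass 1500 bp in some list, and NT lists held more such peaks than sh2 lists in each line. The limit therefore still shapes these counts. A member was called narrower where both sh2 widths lay below both NT widths and the means differed by at least 300 bp, and wider in the reverse case. In RS4;11, 125 of 654 members were narrower and 11 wider. In SEM, 85 of 676 were narrower and 45 wider. In RCH, 15.2% of 665 were narrower and 44 were wider. Of all regions with a peak in all 4 lists, 3.04% were narrower and 0.268% wider in RS4;11, 1.66% and 1.61% in SEM, and 3.78% and 1.26% in RCH. Small regions cannot shrink by 300 bp, and members were chosen by width in any of the 12 lists. Regions with a widest peak of at least 1000 bp but less than 1500 bp in the line itself are a closer comparison, though still not like for like. Of these, 11.8% were narrower and 1.27% wider in RS4;11, 6.55% and 4.74% in SEM, and 16.6% and 5.62% in RCH, against 19.1% and 1.68%, 12.6% and 6.66%, and 15.2% and 6.62% of members. The wider counts moved by more than 1.5 times when a library was left out, up to 34 in RS4;11 (without sh2 library 1), 85 in SEM (without sh2 library 1) and 70 in RCH (without NT library 2), and the narrower count of SEM was 129 without sh2 library 2.

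With widths that do not overlap and no minimum difference, 263 members were narrower and 41 wider in RS4;11, where these classes held 34.9% and 8.43% of all regions with a peak in all 4 lists. In SEM, 146 were narrower and 135 wider, while regions had 17.5% and 25.2%. In RCH, 221 were narrower and 15.5% of members wider, with 36.5% and 12.8% of regions. Expressed as shares, members had 40.2% and 6.27% in RS4;11, 21.6% and 20.0% in SEM, and 33.2% and 15.5% in RCH. The member shares in RS4;11 and RCH were thus near those of all regions. In SEM wider regions outnumbered narrower ones among all regions, and among members the counts were close to each other. Members had a median difference in width (sh2 minus NT) of -82 bp (RS4;11), -15 bp (SEM) and -54.5 bp (RCH), while the median signed difference between the 2 libraries of a sample (library 2 minus 1) was -7 to 13 bp over the 6 samples. At single members the libraries of a sample differed by a median of 93.5 to 138 bp in either direction.

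Some members were narrower in several lines. At least 300 bp narrower in 1 line were 219 members, in 2 lines 43 and in 3 lines 2. RS4;11 and RCH had 25 such members in common, which are 20% of those in RS4;11 and 24.8% of those in RCH. RS4;11 and SEM had 18 (14.4% and 21.2%), and SEM and RCH had 6 (7.06% and 5.94%). Among all regions the same overlaps were 8.89% and 11.9%, 4.30% and 9.70%, and 5.10% and 3.01%. Every line had a lower rate of this call among all regions than among members (RCH 3.78% against 15.2%). The overlaps of members and of all regions are therefore not like for like. Set against the rate among members, 20% of the narrower RS4;11 members were narrower in RCH, compared with 15.2% of its members. The pair RS4;11 and SEM had 14.4% against a SEM rate of 12.6%. For SEM and RCH the overlap was lower, 7.06% against the RCH rate of 15.2%. These overlaps were not tested. Wider in 2 lines were 2 members. Of the 45 members wider in SEM, 17 were narrower in RS4;11 or RCH. Of the 85 narrower in SEM, 22 were narrower in RS4;11 or RCH. These were not counted over all regions, so nothing is read from them. Each line has its own NT libraries, so these counts share no control.

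Some members had no peak at all in a line. RS4;11 lacked a peak in all 4 lists at 19 members (2.79%), RCH at 5 (0.735%) and SEM at 2 (0.294%), against 26.8%, 43.1% and 39.3% of all regions. RS4;11 thus lacked the most members, although it lacked the fewest regions. Of the 19, 14 had a peak in all 8 lists of the other lines. These are singled out after their values were seen. On chromosome 21 from 27541421 to 27543552, broad in 5 lists, SEM had 1694 and 1741 bp with NT and 2050 and 2087 bp with sh2, and RCH had 738 and 2073 bp with NT and 831 and 819 bp with sh2. On chromosome 12 from 80083250 to 80085181, SEM had 1293 and 1927 bp with NT and 1932 and 1419 bp with sh2, and RCH had 1120 and 1614 bp with NT and 706 and 585 bp with sh2. On chromosome 18 from 25756694 to 25758275, SEM had 1510 and 1582 bp with NT and 1485 and 1550 bp with sh2, and RCH had 1418 and 925 bp with NT and 370 and 317 bp with sh2. The 19 members lie on 12 chromosomes, and neither shRNA gave a peak at any of them in RS4;11. The number of DNA copies at these places was not analysed here.

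Members were spread over all 22 chromosomes and unevenly so. Per 1000 regions with a peak in all 12 lists there were 62.9 members on chromosome 4, 46.0 on chromosome 13, 45.6 on chromosome 8 and 44.9 on chromosome 18. There were 10.3 on chromosome 22, 15.5 on chromosomes 19 and 20, 17.5 on chromosome 16 and 21.2 on chromosome 17. This order depends on the denominator. Per 1000 regions of any kind there were 7.02 members on chromosome 4 and 2.24 on chromosome 22, but 5.25 on chromosome 13 and 5.59 on chromosome 18 against 5.29 on chromosome 17 and 4.81 on chromosome 19, with 5.39 overall. As background, chromosomes 16, 17, 19, 20 and 22 include the most gene-dense human chromosomes, and chromosomes 4, 13 and 18 are gene-poor. Chromosome 17 was broad in SEM at all of its 20 members, in RS4;11 at 3 and in RCH at 3, and chromosome 19 at 14, 4 and 4 of 15.

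The 61 members on chromosomes 16, 17, 19, 20 and 22, grouped after the data were seen, differed from the others in the direction of change. In RCH they held 4 broad calls in the 2 NT lists and 15 in the 2 sh2 lists, while the other 17 chromosomes held 185 and 85. In SEM they held 67 with NT and 37 with sh2, against 489 and 457 on the others, and in RS4;11 16 and 13 against 561 and 330. The lower number of broad peaks with sh2 in RCH therefore did not hold on these 5 chromosomes. Of members with a peak in all 4 lists, 0 of 60 were narrower and 14 wider in RCH, 15 of 60 narrower and 3 wider in SEM, and 2 of 61 narrower and 2 wider in RS4;11. All narrower members of RCH thus lay on the other chromosomes, where 30 were wider. SEM had 70 narrower and 42 wider there, and RS4;11 had 123 and 9. Of all regions on the 5 chromosomes, 1.11% were narrower and 2.91% wider in RCH, 3.05% and 0.848% in SEM, and 1.80% and 0.767% in RS4;11. On the other 17 chromosomes the shares of all regions were 4.32% and 0.928% in RCH and 3.22% and 0.196% in RS4;11. In SEM they were 1.39% and 1.76% there, so wider regions outnumbered narrower ones, unlike the members. The difference between chromosome groups was not tested, since chromosomes are not replicates.

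**Figure D5:**
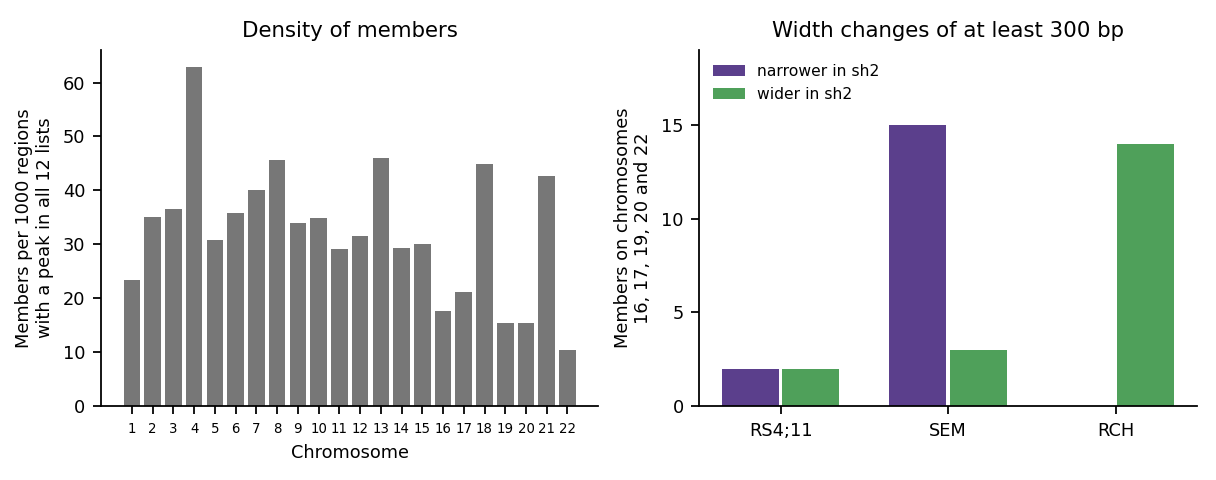
Left, members per 1000 regions with a peak in all 12 lists on each chromosome, from 10.3 on chromosome 22 to 62.9 on chromosome 4. Right, members on chromosomes 16, 17, 19, 20 and 22 that were at least 300 bp narrower (purple) or wider (green) in sh2, with 2 and 2 in RS4;11, 15 and 3 in SEM, and 0 and 14 in RCH.

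The spacing of members is given as a description, and the distances between them have no background to be set against. The median distance to the next member was 968.3 kb, 50 members (7.35%) had another within 100 kb, and the smallest distance was 10674 bp. Within 10 kb of a member's region there were on average 0.941 other regions, and 43.2% had none. All regions had 1.42 on average and 30.4% with none, regions with a peak in all 12 lists had 1.45 and 30.0%, and regions with a widest peak of at least 1000 bp but less than 1500 bp had 1.08 and 40.2%. Regions just under the limit thus had nearly as few neighbours as members. Wide regions take in ground that narrow ones leave to neighbours, and the part of this in the counts was not tested.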

How the data were processed

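ATAC-seq peak lists of 6 samples (2 lists each, without headers) were used. The build is hg19, and reads were aligned with Bowtie2 and peaks called with MACS2, as named per the submitters' processing notes. Their versions and settings, duplicate removal, read shifting and sequencing depth: not given in the sources used here. The value deposited with each peak was read from the values as a fold, a ratio of signal to background in the same library, used only within a list or as a description. Members and lists of results were chosen with earlier results of these data known. Peaks of 1500 bp or more on chromosomes 1 to 22 were merged with an overlap of 1 bp. Width in a list is that of the widest peak overlapping a member. Sex chromosomes were left out.

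Named members were, by rule, the 6 broad in most lists, 2 NT-only and 2 sh2-only broad members per line with the largest difference in mean width, the widest peak, the longest member, and up to 4 shared between lines in each direction. Others are marked in the text. Class results are counts or percent of members. Lines paired NT with sh2, from the line named in the sample titles, in an exact two-sided sign-flip test. The steps were tested on simulated lists with planted states, and merging was checked with bedtools 2.31.1. Python 3.11.15, numpy 2.4.6, pandas 2.3.3 and matplotlib 3.10.9 were used. No sequence is shown, since no hg19 sequence was used.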

Additional observations from a re-analysis of the deposited data

Results flagged for a closer look

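Several measures moved one way in one line and the other way in another, with both sh2 libraries beyond both NT libraries in each line named. These differences between lines were not tested. The log2 ratio (sh2 over NT) for peaks per list came to -0.34 (RS4;11), 0.21 (SEM) and -0.40 (RCH). That of the median fold of all peaks was 0.070, 0.043 and -0.19 in the same order. That of the median fold of broad peaks came to -0.079, 0.081 and -0.23, so that in RS4;11 the broad peaks and all peaks had opposite signs. That of the share of members with 1 narrow peak was 0.50, -0.16 and 0.23. The median fold percentile of broad peaks had -0.072 in RS4;11 and 0.022 in SEM.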

How the results depend on the processing

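The log2 ratio of broad peaks (sh2 over NT) was negative in every line under each alternative. Values below are in the order RS4;11, SEM and RCH where not named, and no cause was tested beyond what each alternative changes by construction. At a limit of 1200 bp there were 2804 members, number ratios of -0.58 (RS4;11) and -0.074 (SEM), share ratios of -0.24 (RS4;11) and -0.34 (RCH), NT-only broad counts of 178, 92 and 142 (5.06% of members in RCH), sh2-only broad counts of 18, 99 and 31 (1.11% in RCH), narrower counts of 349, 235 and 361 and wider counts of 40, 150 and 137. Members with a peak in NT only were then 1 in RS4;11 and 21 in RCH, those with a peak in sh2 only 5 in SEM and 2 in RCH, 89 members were broad in every list, and 702, 757 and 1345 in 3, 2 and 1 lines. At 2000 bp there were 52 members, number ratios of -1.08 (RS4;11) and -0.39 (SEM), share ratios of -0.74, -0.60 and -0.34, NT-only counts of 4, 4 and 0 (7.69% in SEM, 0% in RCH), sh2-only counts of 0, 2 and 1 (0% in RS4;11, 1.92% in RCH), narrower counts of 18, 14 and 9 (38.3% and 26.9% in RS4;11 and SEM), wider counts of 2, 10 and 2 (4.26%, 19.2% and 4%), a peak in NT only at 0 members in SEM and 0 in RCH, 2 broad in every list, and 6, 11 and 35 in 3, 2 and 1 lines. With folds above the pooled median (6.37), the number ratio of RCH was -1.15, the share ratio of RS4;11 -0.53, the sh2-only count of RCH 2 (0.318%), a peak in NT only was found at 3, 8 and 24 members and in sh2 only at 5 in SEM and 5 in RCH, 46 members were narrower in SEM, 23 wider in RCH, and 7 broad in every list. With lists of equal length the share ratios were -0.75, -0.17 and -0.91, a peak in sh2 only was found at 1 member in RS4;11 and 3 in RCH, and in NT only at 1 in RCH. Of alternatives chosen after seeing the data, joining peaks up to 200 bp apart gave 1253 members, ratios of -0.57 (number) and -0.23 (share) in RS4;11, NT-only counts of 56 (SEM) and 41 (RCH), sh2-only counts of 15, 37 and 14 (1.20% in RS4;11, 1.12% in RCH), narrower counts of 191, 163 and 197, wider counts of 26, 84 and 79, a peak in NT only at 2 (SEM) and 8 (RCH), in sh2 only at 1 (SEM) and 2 (RCH), 30 broad in every list, and 278, 329 and 646 in 3, 2 and 1 lines. The share over regions with a peak in all 4 lists had ratios of -0.75, -0.17 and -0.92. Without a minimum difference, 40.2%, 21.6% and 33.2% of members were narrower and 6.27%, 20.0% and 15.5% wider. Counting a peak only with at least 0.5 of its length inside the member, or merging broad peaks up to 500 bp apart, left each of these counts within 1.5 times.

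Without 1 library, members ranged from 634 to 679, number ratios from -0.77 to -0.73, -0.22 to -0.12 and -1.03 to -0.80 (mean -0.65 to -0.57), and share ratios from -0.48 to -0.34, -0.46 to -0.30 and -0.64 to -0.39 (mean -0.48 to -0.40). NT-only broad members were 7.51% to 18.4%, 4.71% to 16.1% and 2.82% to 9.47% of members, and sh2-only broad members 0.589% to 3.27%, 2.80% to 11.1% and 0.592% to 3.09%. Narrower were 19.05% to 24.0%, 12.4% to 19.9% and 14.6% to 20.9%, and wider 1.44% to 5.28%, 6.55% to 13.04% and 6.26% to 10.6%. A peak in NT only was found at 0 to 2, 0 to 2 and 1 to 6 members, and in sh2 only at 0 to 1, 0 and 0 to 1. Broad in every list were 13 to 16, and 93 to 116, 159 to 203 and 348 to 383 in 3, 2 and 1 lines. Without the pairing by line (no replicate block), the mean ratios are again -0.61 (number) and -0.44 (share). No p is given for them with or without the pairing, because these values rest on the widths that chose the members. An exact two-sided p could not fall below 0.25 with the pairing or 0.1 without it, so it would say nothing about stability. Depth is unknown, so a dip that splits a broad peak cannot be told apart from thin coverage.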

Other observations

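Broad peaks on chromosome X were outside the rule and were counted separately. RS4;11 had 7 in each NT library and 4 in each sh2 library. SEM had 8 and 5 in NT libraries, then 7 and 6 in sh2 libraries. RCH had 0 and 1 under either shRNA.

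Among the NT-only broad members that were narrow in both sh2 libraries, the lost bases came from both edges in 10 of 16 in RS4;11, 3 of 9 in SEM and 2 of 3 in RCH. In the others at least 90% of the lost bases lay at 1 edge. The median loss was 227.5, 217 and 165.5 bp.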
